A study of Arabidopsis thaliana with 14 samples.

Results

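The loci described here are 83 nuclear genes of Arabidopsis thaliana chromosome arms that were listed at 0 in the Col wild type and had transcripts in the histone deacetylase mutant hda6-6. They were chosen by their RPKM (reads scaled by exon length and by the mapped total of the library), which had to be 0 in all 3 Col libraries and above 0.2 in all 3 hda6-6 libraries, and by a gene number outside the blocks around the 5 centromeres. Of the 33602 gene IDs in the files, 28022 lay on chromosome arms, 5107 of these were at 0 in every Col library, and 83 met the whole rule. AT1G50735 was left out by the rule itself. The hda6-6 and Col values that chose the loci are therefore given as a description and are not tested.

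The RNA came from 14-day-old seedlings of the Col-0 background grown in long days, in 14 libraries. There were 3 libraries each of hda6-6, hda5-1 and hda9-1, 1 each of fve-4 and fld-6, and 3 of Col, and the labels name no treatment. The hda6-6 allele (axe1-5) is a point mutation at a splice site of HDA6, fve-4 is a point mutation that gives an early stop in FVE, and fld-6 has a T-DNA inside FLD. The labels give hda5-1 and hda9-1 as homozygous mutants of HDA5 and HDA9, and the kind of lesion is not given in the sources used here. The study asked which genes HDA6 controls together with its partners FVE and FLD.

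HDA6, HDA5 and HDA9 are related RPD3-type enzymes that remove acetyl groups from histones, and deacetylated histones are a feature of silent chromatin. HDA6 is known for keeping transposons, repeats and some ribosomal RNA genes silent, a task in which it acts beside DNA methylation. FVE is a WD-repeat protein and FLD a relative of histone demethylases, and both are known from the autonomous pathway of flowering. Transposable elements of this plant are densest around the centromeres, so those on the arms are a minority that sits among active genes.

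The labels were checked on HDA6 itself (AT5G63110), which had 3.46, 3.62 and 2.84 RPKM in hda6-6, against 8.58, 10.0 and 9.24 RPKM in Col. Its log2 fold change was -1.46 (SE 0.134, limma adjusted p = 6.75e-06), and it lay between 8.08 and 11.8 RPKM in the other mutants. The estimated depth was 17.9 to 25.5 in units of 1e6 mapped reads a library, the lowest in hda9-1 replicate 1. The summed RPKM of 5 leaf photosynthesis genes was 31700 to 34810 in hda6-6 and 32040 to 37650 in Col. The sum over 11 pollen genes was 0.955 to 1.104 in hda6-6 and 0.952 to 1.19 in Col, with 4 genes at 0 in every hda6-6 library. Over 15 seed genes the sum was 0.201 to 0.488 in hda6-6 and 0.402 to 2.63 in Col, and over 8 root genes 1286 to 1656 in hda6-6 and 1445 to 1758 in Col. Over 10 flower genes it was 4.07 to 5.04 in hda6-6 and 5.98 to 7.73 in Col, and no locus described here was on any of these lists. In whole seedlings, RNA from a few cells at a high level and from many cells at a low level cannot be told apart.

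Genes of the pseudogene class of the annotation (RefSeq, TAIR10.1) made up 45 of the 83 loci (54.2%), against 902 of 27624 annotated chromosome-arm genes (3.27%) and 661 of 4807 annotated arm genes at 0 in Col (13.8%). These 45 are called transposable element genes below, because the study uses that class name for nearly all of them that its tables list, while the annotation itself names their products only as uncharacterized. A further 35 were protein-coding genes, and 1 each was a transcribed pseudogene (AT1G30784), a long non-coding RNA (AT4G34071) and a microRNA gene (MIR843). Chromosome 1 held 29 of the loci, chromosome 2 held 12, chromosome 3 held 16, chromosome 4 held 14 and chromosome 5 held 12. Since the genes had to be silent in Col, these shares describe the choice as much as the mutant.

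Start regions of 6 loci and 1 expressed paralog are printed first, because they show which loci are copies of each other and which carry the letters of known promoter elements. Each window runs from 250 bases before to 50 bases after the annotated start (RefSeq, TAIR10.1), 5′ to 3′ on the strand of the gene. Capitals mark TATAAA (the TATA box), CACGTG (the G-box) or TTGAC (the core of the W-box, bound by WRKY factors), on either strand. The first pair is the histidine biosynthesis gene HISN6B (AT1G71920, chr1:27066698-27066997, plus strand), silent in Col, and its expressed paralog HPA1, also called HISN6A (AT5G10330, chr5:3250915-3251214, minus strand).
HISN6B: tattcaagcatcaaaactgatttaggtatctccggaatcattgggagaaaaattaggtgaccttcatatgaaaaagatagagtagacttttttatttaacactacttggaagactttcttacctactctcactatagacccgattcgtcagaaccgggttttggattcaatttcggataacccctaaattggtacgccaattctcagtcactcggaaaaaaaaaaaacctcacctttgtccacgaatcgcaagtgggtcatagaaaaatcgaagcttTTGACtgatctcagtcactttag
HPA1: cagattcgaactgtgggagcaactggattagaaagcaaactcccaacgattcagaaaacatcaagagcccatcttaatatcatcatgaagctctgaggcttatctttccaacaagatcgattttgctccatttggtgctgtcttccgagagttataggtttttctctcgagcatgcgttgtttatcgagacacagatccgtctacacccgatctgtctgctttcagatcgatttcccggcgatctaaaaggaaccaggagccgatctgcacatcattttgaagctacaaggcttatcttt
At the best alignment of the windows 182 of 300 bases were identical (60.7%), whereas the transcribed part of HISN6B matched HPA1 at 98.1% identity over its whole length. The HISN6B window held TTGAC and no TATAAA, and the HPA1 window held none of the 3 motifs.

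The second pair is AT5G01080, annotated as a beta-galactosidase related gene (chr5:29037-29336, minus strand), and its annotated pseudogene AT1G30784 (chr1:10930041-10930340, minus strand).
AT5G01080: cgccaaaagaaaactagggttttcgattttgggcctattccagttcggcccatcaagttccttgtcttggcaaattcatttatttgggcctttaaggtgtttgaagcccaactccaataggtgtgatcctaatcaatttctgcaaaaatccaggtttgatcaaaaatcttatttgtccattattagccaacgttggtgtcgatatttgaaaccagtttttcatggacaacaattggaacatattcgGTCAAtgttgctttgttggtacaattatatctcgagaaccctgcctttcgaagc
AT1G30784: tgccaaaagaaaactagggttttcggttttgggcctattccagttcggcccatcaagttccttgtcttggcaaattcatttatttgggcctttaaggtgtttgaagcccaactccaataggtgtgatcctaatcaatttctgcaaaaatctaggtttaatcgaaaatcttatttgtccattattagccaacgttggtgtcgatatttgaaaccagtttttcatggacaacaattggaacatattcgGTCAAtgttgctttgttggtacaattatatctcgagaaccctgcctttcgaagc
These windows shared 295 of 300 bases (98.3%) and the exons 550 of 555 bases (99.1%). Both windows held TTGAC, written here as its reverse complement. AT5G01080 lies 9.5 Mb from the centromeric block of its chromosome and AT1G30784 lies 2.52 Mb from that of its own.

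The third pair is AT1G32225 (chr1:11609864-11610163, plus strand) and AT2G24780 (chr2:10566133-10566432, minus strand), a pair of uncharacterized coding genes that had transcripts in fve-4 and fld-6 as well as in hda6-6.
AT1G32225: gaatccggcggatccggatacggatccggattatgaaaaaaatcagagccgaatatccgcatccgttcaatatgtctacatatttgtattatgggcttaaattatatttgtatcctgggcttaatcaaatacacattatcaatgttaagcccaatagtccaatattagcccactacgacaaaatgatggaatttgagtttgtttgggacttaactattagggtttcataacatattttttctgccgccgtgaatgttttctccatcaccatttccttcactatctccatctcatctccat
AT2G24780: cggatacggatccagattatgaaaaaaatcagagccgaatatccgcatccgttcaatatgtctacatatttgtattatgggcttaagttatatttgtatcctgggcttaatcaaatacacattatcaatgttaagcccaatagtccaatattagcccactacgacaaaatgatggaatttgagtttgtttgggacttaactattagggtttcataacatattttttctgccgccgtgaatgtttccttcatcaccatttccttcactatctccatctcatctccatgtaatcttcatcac
Their windows shared 282 of 300 bases (94%), and none of the 3 motifs was found in them.

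The last windows belong to AT1G34440, whose level in fve-4 lay within its hda6-6 range (chr1:12593530-12593829, minus strand), and AT2G23490, the locus with the most RNA in hda6-6 (chr2:10005635-10005934, minus strand).
AT1G34440: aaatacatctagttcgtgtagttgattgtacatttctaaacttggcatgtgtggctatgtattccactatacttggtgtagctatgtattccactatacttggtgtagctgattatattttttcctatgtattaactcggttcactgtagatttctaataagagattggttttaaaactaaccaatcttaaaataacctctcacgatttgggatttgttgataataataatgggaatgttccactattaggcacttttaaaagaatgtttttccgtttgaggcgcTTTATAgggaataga
AT2G23490: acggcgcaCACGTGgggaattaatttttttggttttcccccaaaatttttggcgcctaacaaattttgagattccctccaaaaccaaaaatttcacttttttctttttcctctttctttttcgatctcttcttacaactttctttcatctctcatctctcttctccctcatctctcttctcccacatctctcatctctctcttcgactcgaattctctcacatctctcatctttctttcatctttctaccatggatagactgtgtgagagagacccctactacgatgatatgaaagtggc
AT1G34440 held TATAAA, as reverse complement, inside the 50 bases after its annotated start and not before it. AT2G23490 held CACGTG at the distal end of its window. Among the windows of all 83 loci, 29 held TATAAA (34.9%), against 51.9% of 27620 chromosome-arm windows. TTGAC occurred in 34 (41%), against 50.4% of arm windows and 47.6% of those of arm genes at 0 in Col. CACGTG occurred in 4 (4.82%), against 7.57% of arm windows and 3.41% of those of arm genes at 0 in Col. By class, 6.67% of transposable element loci held CACGTG, against 2.33% of pseudogene-class arm genes. For coding loci it was 2.86%, against 7.99% of coding arm genes. The median GC content was 36.3% in the 83 windows and 32.3% in arm windows, with a median of 7 CG dinucleotides in the 83 windows and 6 in arm windows. Pseudogene-class genes of the arms had medians of 35.7% and 7, and the 45 transposable element genes 37.7% and 6. The 45 transposable element genes held TATAAA in 26.7% of windows, and pseudogene-class genes of the arms in 38.1%. Among the 35 coding loci it was 48.6%, and among coding genes of the arms 52.7%. A match of letters is a description of the window and not a binding site.

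The level reached in hda6-6 spanned a wide range. The means over the 3 hda6-6 libraries ran between 0.238 and 61.5 RPKM with a median of 1.14, and 44 loci had a mean of at least 1 RPKM and 11 of at least 5. The order of the loci was alike in the 3 libraries, with Spearman correlations of 0.922, 0.935 and 0.94 over the 83 loci, which share the choice by level. Transposable element genes had a median of 1.14 RPKM over 45 loci and coding genes 1.28 RPKM over 35. The transposable element genes were longer, with a median exon length of 2612 bases against 1038 bases in the coding loci. The summed RPKM of all 83 loci was 253.9, 237.3 and 243.5 in hda6-6, and 0 in each Col library by the rule.

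**Figure D1:**
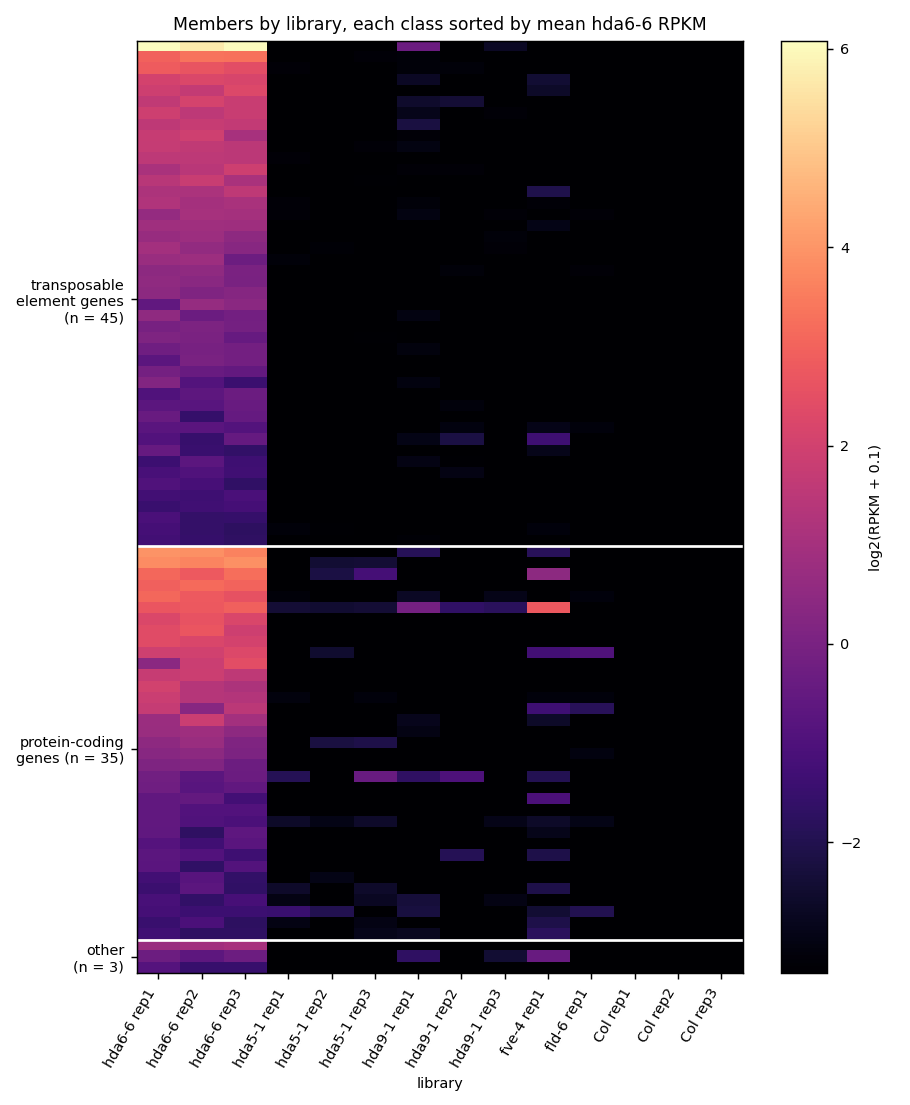
Heat map of the 83 loci (rows, by annotation class and sorted by mean hda6-6 RPKM) in the 14 libraries (columns), coloured by log2(RPKM + 0.1). The hda6-6 columns are filled throughout, the fve-4 column shows 7 loci above RPKM 0.2, and the Col columns are at 0 by the choice of the loci.

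AT2G23490, a transposable element gene, stood above the others with 67.7, 51.5 and 65.2 RPKM in hda6-6 and was listed at 0 in Col. It had 0.701, 0 and 0.0565 RPKM in hda9-1 and was at 0 in hda5-1, fve-4 and fld-6. The next transposable element gene was AT1G52850, with 7.77, 10.2 and 9.77 RPKM in hda6-6, followed by AT1G53810 with 7.10, 6.19 and 5.45 RPKM. No library outside hda6-6 had more than 0.0127 RPKM of AT1G52850 or 0.0123 RPKM of AT1G53810. AT2G23490 has 6 near copies in the files, all inside pericentromeric blocks, of which AT5G35792 had 41.6, 38.0 and 35.8 RPKM in hda6-6 and was at 0 in Col. Another, AT2G04320, had 45.8, 38.6 and 35.9 RPKM in hda6-6, against 0, 0.13 and 0 RPKM in Col. These copies beside the centromeres thus differed between the genotypes in the same direction as the arm copy.

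Near copies were searched for the 83 loci only, so their share among other arm genes is not known. By blastn, 25 of the 83, 16 of them transposable element genes, had another annotated gene with at least 95% identity over at least 50% of the exon length. Of the 24 such copies in the files that are not among the 83 loci, 17 were at 0 in all Col libraries, 14 were above RPKM 0.2 in all hda6-6 libraries and 16 lay inside a pericentromeric block. Of 153 small values of the loci, 73 came out as whole reads within a tolerance of 0.02. Whether the others are shares of reads or follow from exon lengths unlike those behind the RPKM was not tested. AT1G66030 (CYP96A14P), with no near copy, came out at 1.21 reads in fve-4 and 2.42 in fld-6. Reads that match several copies may be divided among them, so the level of a single copy is less certain than that of its family.

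Histidine biosynthesis gave a coding example. HISN6B encodes a histidinol-phosphate aminotransferase, an enzyme of a late step of histidine synthesis, and had 14.2, 12.7 and 14.9 RPKM in hda6-6, while it was listed at 0 in Col. It had 0, 0.085 and 0.0935 RPKM in hda5-1 and was at 0 in hda9-1, fve-4 and fld-6. Its paralog HPA1 was read in every library, with 8.66, 7.43 and 9.26 RPKM in hda6-6, against 6.65, 6.64 and 7.33 RPKM in Col. In hda6-6 the level per length of HISN6B was above that of HPA1 in each of the 3 libraries. In Col the reads of HPA1 gave no value to HISN6B, despite 98.1% identity.

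A similar pair was AT1G27565 and AT1G52905, coding genes of unknown function with 98.3% identity. AT1G27565 had 8.49, 6.76 and 9.36 RPKM in hda6-6 and was listed at 0 in Col, whereas AT1G52905 had 9.86, 11.8 and 11.9 RPKM in hda6-6 and 7.33, 17.5 and 12.3 RPKM in Col. The ranges of AT1G52905 overlapped between the genotypes, and those of AT1G27565 could not, by the rule. AT1G27565 also had 1.26 RPKM in fve-4, and 0, 0.123 and 0.329 RPKM in hda5-1.

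AT2G19850, annotated as a transcription repressor, belonged to a group of 3 near-identical genes. It had 8.32, 6.92 and 5.80 RPKM in hda6-6 and was listed at 0 in Col. Its copy AT3G54730, on the arm of chromosome 3, had 10.6, 10.6 and 11.2 RPKM in hda6-6, against 0, 0.0637 and 0.0317 RPKM in Col, and was kept out of the 83 loci by those Col traces. Its other copy AT4G04030, inside the block around the centromere of chromosome 4, had 9.46, 10.8 and 8.62 RPKM in hda6-6 and was at 0 in Col. AT3G54730 had 0.679 RPKM in fve-4, where AT2G19850 and AT4G04030 were at 0.

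**Figure D2:**
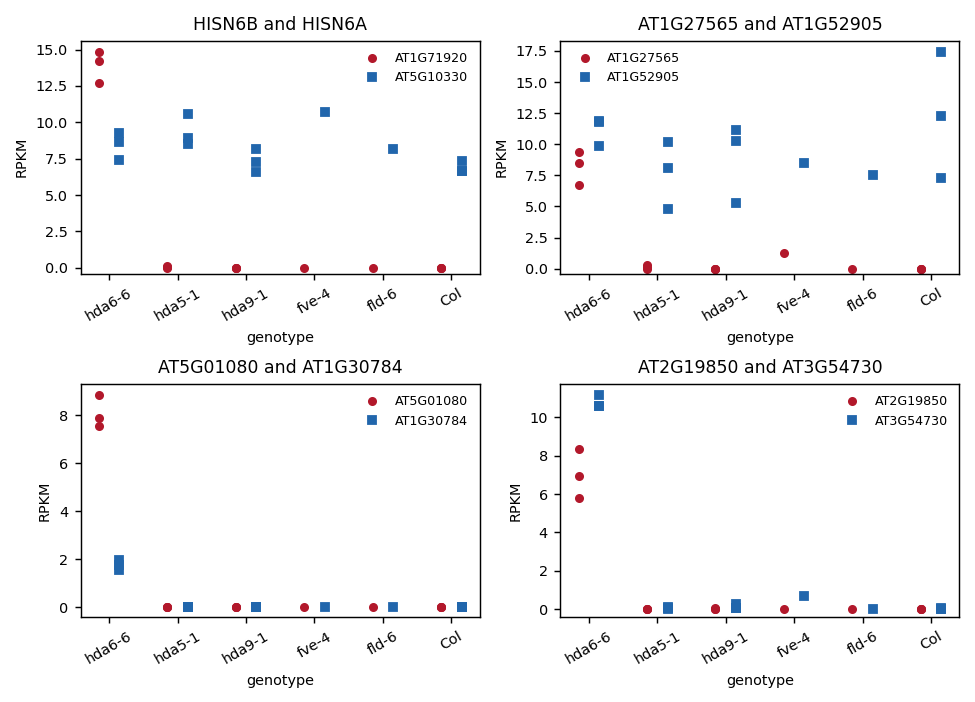
RPKM of 4 loci (circles) and a near copy of each (squares) by genotype, 1 point a library. HPA1 (AT5G10330) and AT1G52905 were read in every genotype, AT1G30784 in hda6-6 only among these libraries, and AT3G54730 mainly in hda6-6.

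Genes annotated as beta-galactosidase related or as glycosyl hydrolase family 35, a family of enzymes that release galactose from cell wall polymers, recurred among the loci, and were grouped after their values had been seen. AT3G24542 had 15.8, 14.7 and 12.4 RPKM in hda6-6, a mean of 14.3 RPKM that was within the replicate spread of HISN6B at 13.9 RPKM. AT5G01080 had 7.55, 8.87 and 7.91 RPKM in hda6-6 and its pseudogene AT1G30784 had 1.55, 1.77 and 1.98 RPKM, while both were at 0 in each of the 11 other libraries. AT3G44070 followed with 5.11, 4.53 and 4.11 RPKM and AT4G29200 with 1.62, 3.49 and 1.84 RPKM in hda6-6, and all 5 were listed at 0 in Col. These product names covered 4 coding loci of 83 (4.82%) and 11 coding genes of the arms (0.0398%). Genes with other names, such as AT3G13750 (beta galactosidase 1) and AT1G77410 (beta-galactosidase 16), were not counted. The shares therefore concern the names and not the whole enzyme family.

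These loci were not copies at the level of near identity, apart from AT5G01080 and AT1G30784. Their start windows shared 58.3 to 59.7% of bases at the best alignment, about as much as the unlike windows of HISN6B and HPA1. Of the 14 genes in the files named beta-galactosidase related, 9 were at 0 in every Col library and 5 of those were above RPKM 0.2 in every hda6-6 library, 3 of them among the loci here. Other members of the name were active in the wild type, such as AT2G04378 with 16.8, 21.6 and 17.6 RPKM in hda6-6 and 11.6, 17.8 and 14.99 RPKM in Col.

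Other coding loci were of varied kinds. AT1G63540, a hydroxyproline-rich glycoprotein gene, had 4.67, 6.06 and 4.56 RPKM in hda6-6 and was at 0 in the 11 other libraries. AT3G24516, a short uncharacterized gene of 189 bases that overlaps AT3G24514, had 5.11, 6.40 and 3.71 RPKM in hda6-6. The F-box genes AT1G69630 and AT3G16590, of the class that picks proteins for degradation, averaged 0.456 and 0.238 RPKM in hda6-6. Of the lists of product words, F-box covered 2 loci (2.41%) and 2.11% of arm genes, disease resistance 2 loci (2.41%) and 0.681%, cytochrome P450 2 loci (2.41%) and 0.851%, and kinase 1 locus (1.2%) and 4.74%. The words hypothetical, unknown or uncharacterized covered 13 coding loci (15.7%) and 8.24% of arm genes.

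The further transposable element genes, which like the coding genes of the next paragraph were picked for description after their values were seen, covered lower levels. AT1G62460 had 2.60, 3.40 and 2.03 RPKM in hda6-6 and its copy AT4G09455, with 4386 shared exon bases (99.6%), had 0.976, 0.918 and 0.64 RPKM. The copies differed in level although their start windows shared 296 of 300 bases (98.7%), and each had 0.005 RPKM or less in hda5-1 replicate 3, its only trace elsewhere. The adjacent AT1G49080 (3.01, 4.13 and 3.37 RPKM) and AT1G49090 (2.06, 2.64 and 3.66 RPKM) both have a near copy in AT3G46487, itself among the loci at 0.278, 0.525 and 0.29 RPKM in hda6-6. AT4G22450 had 3.71, 3.15 and 4.77 RPKM in hda6-6 and 0.0624 RPKM in fve-4. The least even locus of all was AT1G34090, with 1.06, 0.445 and 0.268 RPKM in hda6-6.

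Several coding loci carry names of regulators. AT5G45570, of the Ulp1 family of proteases that act on the small modifier SUMO, had 3.50, 2.49 and 2.40 RPKM in hda6-6, with 0.0185, 0 and 0.0158 RPKM in hda5-1, 0.0155 RPKM in fve-4 and 0.0143 RPKM in fld-6. AT4G03156, annotated as a small GTPase-like protein, had 3.95, 2.44 and 2.19 RPKM in hda6-6 and was at 0 in the 11 other libraries. AT1G20280, annotated as homeobox-leucine zipper-like, had 0.583, 0.431 and 0.433 RPKM in hda6-6 and was at 0 elsewhere. AT2G40450, with a BTB/POZ protein interaction domain, had 0.267, 0.517 and 0.223 RPKM in hda6-6 and 0.136 RPKM in fve-4. These low loci rest on few reads, estimated at 3.87 in the lowest hda6-6 library for AT2G40450. The estimate uses the annotated exon length and is approximate.

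A pair of MADS-box genes on chromosome 5 was among the loci. AGL34 (AT5G26580, chr5:9393065-9394102) and AGL36 (AT5G26650, chr5:9343785-9345011) encode type I MADS transcription factors, and AGL36 is known as an imprinted gene of the endosperm. AGL34 had 0.769, 0.493 and 0.585 RPKM and AGL36 0.306, 0.476 and 0.229 RPKM in hda6-6, and both were listed at 0 in Col. The only other library with a trace was hda5-1 replicate 2, with 0.0319 RPKM of AGL36. They share 270 of 300 bases of the start window (90%) and lie 0.139 and 0.188 Mb from the centromeric block.

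A pair of disease resistance genes also lay side by side. ADR1-L3 (AT5G47280), of the ADR1 family of helper receptors in plant immunity, had 1.15, 1.27 and 0.949 RPKM in hda6-6. Its neighbour AT5G47260 had 0.974, 1.03 and 0.723 RPKM, and both were listed at 0 in Col. The gene on the other side, AT5G47250, was active in the wild type and averaged 3.38 RPKM in hda6-6 and 1.34 RPKM in Col, a log2 fold change of 1.27 (limma adjusted p = 0.000725).

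The cytochrome P450 loci stayed close to the lower limit. CYP705A3 (AT4G15360), from a cluster of metabolic genes, had 0.361, 0.228 and 0.344 RPKM in hda6-6, and 0.103, 0 and 0.0277 RPKM in hda9-1. Its neighbour BARS1, which makes the triterpene baruol and is no member of the set, averaged 1.21 RPKM in hda6-6 and 0.0191 RPKM in Col, a log2 fold change of 3.45 (limma adjusted p = 0.000114). The other neighbour CYP705A2 averaged 0.652 RPKM in hda6-6 and 0.2 RPKM in Col, a log2 fold change of 1.35 (limma adjusted p = 0.00236). CYP96A14P (AT1G66030) had 0.333, 0.277 and 0.278 RPKM in hda6-6, but also 0.261, 0.155 and 0 RPKM in hda5-1.

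The non-coding loci were low. AT4G34071, a long non-coding RNA, had 0.72, 0.532 and 0.712 RPKM in hda6-6 and 0.653 RPKM in fve-4, and was listed at 0 in Col. MIR843 (AT3G48057, chr3:17742098-17742302, plus strand) had 0.459, 0.254 and 0.255 RPKM in hda6-6 and was at 0 in the other 11 libraries. Its mature product (RefSeq, TAIR10.1) is shown with the seed, bases 2 to 8, in capitals.
miR843: uUUAGGUCgagcuucauugga
The lowest hda6-6 value of MIR843 equals only about 1.12 reads, and the libraries were made from poly-A RNA, so the value concerns the precursor locus and not the mature microRNA.

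The spread between hda6-6 libraries differed from locus to locus. The coefficient of variation had a median of 18.8% and ran between 1.45 and 70.4%. Among loci with a mean of at least 1 RPKM the least variable were the transposable element genes AT2G20460 (2.82, 2.85 and 2.77 RPKM), AT5G50715 (1.74, 1.77 and 1.68 RPKM) and AT1G17277 (4.05, 4.58 and 4.41 RPKM). The most variable was AT1G35500, with 1.21, 3.46 and 5.38 RPKM, followed by AT2G24780 with 3.23, 1.15 and 2.76 RPKM and AT4G29200. Replicate 1 was low for AT1G35500 and replicate 2 for AT2G24780. Just inside the limit of RPKM 0.2 were AT3G27883, AT1G22120 and AT3G16590, with lowest values of 0.201, 0.205 and 0.207 RPKM. Just outside were AT3G25720, AT1G61200 and AT1G60020, with lowest values of 0.198, 0.195 and 0.192 RPKM.

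All 83 loci passed the filter of the test (RPKM above 0.1 in at least 3 libraries), because the 3 hda6-6 libraries alone satisfy it. In the limma fit on log2(RPKM + 0.1), all 83 were called higher in hda6-6 than in Col, beside 7.95% of the 23187 genes tested. A call needed an adjusted p (Benjamini-Hochberg over all genes tested) under 0.05 together with a 2-fold or larger change. This count follows from the choice of the loci and nothing is read from it.

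In the mutants of the related deacetylases the loci stayed at or near 0. No locus was above RPKM 0.2 in every library of hda5-1 or of hda9-1. Of the 5023 other arm genes at 0 in Col, 0.0995% were above it in hda5-1 and 0.0597% in hda9-1. The count of the loci is thus near the share of the other genes. In hda5-1 the summed RPKM was 0.801, 0.715 and 1.61, in hda9-1 it was 3.03, 1.095 and 0.47, and in Col it was 0. Of the 83 loci, 57 were at 0 in all 3 hda5-1 libraries and 47 in all 3 hda9-1 libraries. The same count was not made for the other arm genes. No locus was called higher in hda5-1 than in Col (limma, 5.51% of all genes), with 6 at an unadjusted p under 0.05. In hda9-1 against Col 1 locus was called, AT1G34440 (2.1% of all genes). Because Col is 0 by the rule, these counts can only be set beside each other.

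Traces of many loci appeared in hda9-1 replicate 1. There 28 loci (33.7%) were above 0, against 12 and 10 in the other hda9-1 libraries and 15, 10 and 15 in hda5-1. Of these 28 loci 18 were transposable element genes, and 10 were among the 20 highest in hda6-6. Among the 5023 arm genes at 0 in Col that were not chosen, 4.46% were above 0 in the same library, 4.06 and 5.4% in the other hda9-1 libraries and 5.87 to 6.53% in hda5-1. The chosen loci are longer than arm genes at 0 in Col (median exon length 1524 and 709 bases), which in every library allows more reads at an equal RPKM. This hda9-1 library was the shallowest of the series. What set it apart was not tested, and without it no locus was called between hda5-1 and hda9-1.

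**Figure D3:**
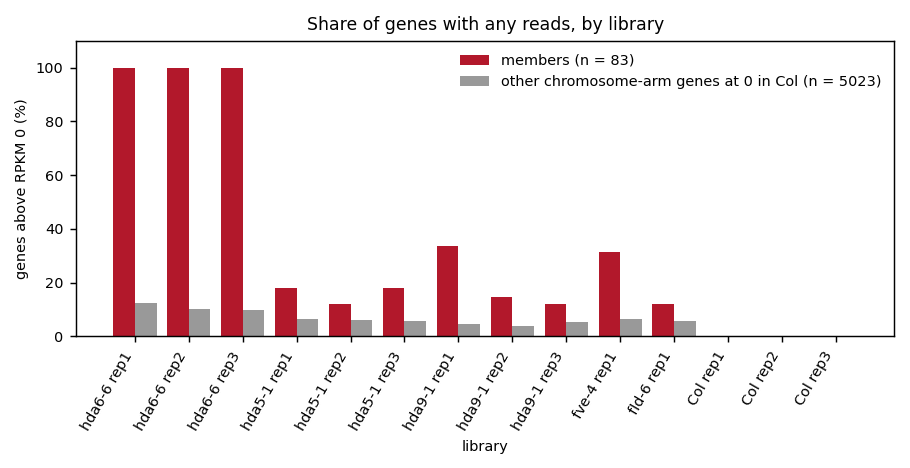
Percentage of the 83 loci (red) and of 5023 other chromosome-arm genes at 0 in Col (grey) that had an RPKM above 0, by library. Outside hda6-6, hda9-1 replicate 1 (33.7%) and fve-4 (31.3%) had the highest shares of the loci, and Col is at 0 by the choice of both sets.

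The rule did not use the values of hda5-1, hda9-1, fve-4 or fld-6. The fit over all libraries still rests on the rule in part, because the loci passed the filter through hda6-6 and the pooled spread includes Col at 0, so its calls among these mutants are given as a description. A fit on the libraries of these 4 genotypes alone, chosen after seeing the data, had 22202 genes above RPKM 0.1 in at least 3 of these libraries. Only 4 of the loci were among them, AT1G34440, AT1G27565, AT1G07175 and CYP96A14P, and the others could not be tested in this way. AT1G27565 passed this filter only with the fve-4 library counted.

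Between hda5-1 and hda9-1 the fit over all libraries called 1 of the 83 loci, beside 6.26% of all genes in either direction. It was AT1G34440, an uncharacterized coding gene, with 0.0926, 0.0825 and 0.0922 RPKM in hda5-1, against 0.826, 0.221 and 0.19 RPKM in hda9-1. The groups did not overlap, but in the fit without hda6-6 and Col its log2 difference of -1.23 (SE 0.455, limma adjusted p = 0.11) was not called, nor was any of the other 3 loci, beside 5.93% of the genes tested. Without hda9-1 replicate 1 the log2 difference was -0.69 in the fit over all libraries, under the 2-fold limit of a call.

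Several loci had transcripts in the fve-4 library. In it 26 of the 83 loci were above 0 (31.3%), against 6.51% of the 5023 other arm genes at 0 in Col, which are shorter, and 28 loci were above 0 in hda9-1 replicate 1. In fve-4 7 loci were above RPKM 0.2 (8.43%), against 1.08% of the other arm genes. Their summed RPKM was 11.5, of which 10.13 came from the coding loci and 0.708 from the transposable element genes. AT1G34440 alone gave 6.69 RPKM of this sum and AT1G27565 gave 1.26 RPKM. In fve-4 16 of 35 coding loci and 9 of 45 transposable element genes were above 0.

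The fve-4 library lay outside the Col range in the seed, leaf photosynthesis and pollen lists. In the other lists it lay inside that range. The 8 root genes summed to 1742 in fve-4 and 1445 to 1758 in Col, and the 10 flower genes to 7.09 in fve-4 and 5.98 to 7.73 in Col. The summed RPKM of the 15 seed genes was 6.64 in fve-4, against 1.26 to 1.97 in hda5-1, 0.245 to 0.643 in hda9-1 and 0.402 to 2.63 in Col, with 3 of the 15 genes at 0 in fve-4. That of the 5 leaf photosynthesis genes was 22760 in fve-4, against 28500 to 32830 in hda5-1, 26670 to 29330 in hda9-1 and 32040 to 37650 in Col. The 11 pollen genes summed to 1.82 in fve-4, 7 of them at 0, against 0.702 to 1.055 in hda5-1, 1.21 to 1.72 in hda9-1 and 0.952 to 1.19 in Col. The part of these differences in the fve-4 values of the loci was not tested.

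Against the mean of hda5-1 and hda9-1, the fit over all libraries called 9 loci (10.8%) higher in fve-4 and none lower, beside 1.85% of all genes called higher, and 7 loci with the replicate number as a block. In the fit without hda6-6 and Col, 2 of the 4 loci tested were called, AT1G34440 and AT1G27565, beside 0.982% of genes called higher. AT1G27565 passed the filter of that fit only through its fve-4 value, so its call is a description. With a single fve-4 library the standard error is borrowed from hda5-1 and hda9-1, on the assumption that fve-4 varies as they do. Against Col the count was 11 loci (13.3%), beside 3.9% of all genes, and is set by the Col value of 0 as before. The 2 further loci against Col were AT1G22120, with 0.134 RPKM in fve-4, and AT3G24542, with 0.178 RPKM.

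AT1G34440 (chr1:12591348-12593579, minus strand) stood out, with 6.69 RPKM in fve-4, within its range of 6.29, 6.67 and 7.495 RPKM in hda6-6. It was at 0 in fld-6 and Col. Against the mean of hda5-1 and hda9-1 its log2 difference was 4.55 (SE 0.602, limma adjusted p = 0.0173, without hda6-6 and Col), resting on about 205 reads in fve-4. It lies 0.857 Mb from the centromeric block of chromosome 1 and has no near copy.

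AT1G27565 was next, with 1.26 RPKM in fve-4 and a log2 difference of 3.22 (SE 0.71, limma adjusted p = 0.0491, without hda6-6 and Col), at about 15.1 reads. It passed the filter of that fit only through fve-4, so this is a description. Its level in fve-4 was below each of its hda6-6 values. With no filter on low values in the fit without hda6-6 and Col, AT1G27565 was not called. Its copy AT1G52905, 98.3% identical, had 8.51 RPKM in fve-4, so reads may be divided between them. AT4G34071, the long non-coding RNA, had 0.653 RPKM in fve-4 against 0 in each hda5-1 library and 0.213, 0 and 0.0859 RPKM in hda9-1. AT1G55650, a gene for an HMG-box protein with an ARID DNA-binding domain, had 0.38 RPKM in fve-4 and was at 0 in every hda5-1 and hda9-1 library.

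The remaining 5 called loci rested on few reads. AT4G01980, a transposable element gene at 0.29 RPKM in fve-4, equalled about 6.14 reads. AT3G16590 at 0.19 RPKM equalled about 4.99 reads, AT2G24780 at 0.293 RPKM about 3.83, AT1G32225 at 0.316 RPKM about 3.77 and AT2G38990 at 0.139 RPKM about 1 (0.998). With at least 5 estimated reads required, 5 of the 9 calls over all libraries were left, and with a pseudocount of 1 only 2 were made. AT4G01980 also has a near copy, AT2G22710, at 1.23 RPKM in fve-4, 1.35, 1.35 and 1.19 RPKM in hda6-6 and 0.108, 0.157 and 0.156 RPKM in Col, so reads may be divided between them.

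**Figure D4:**
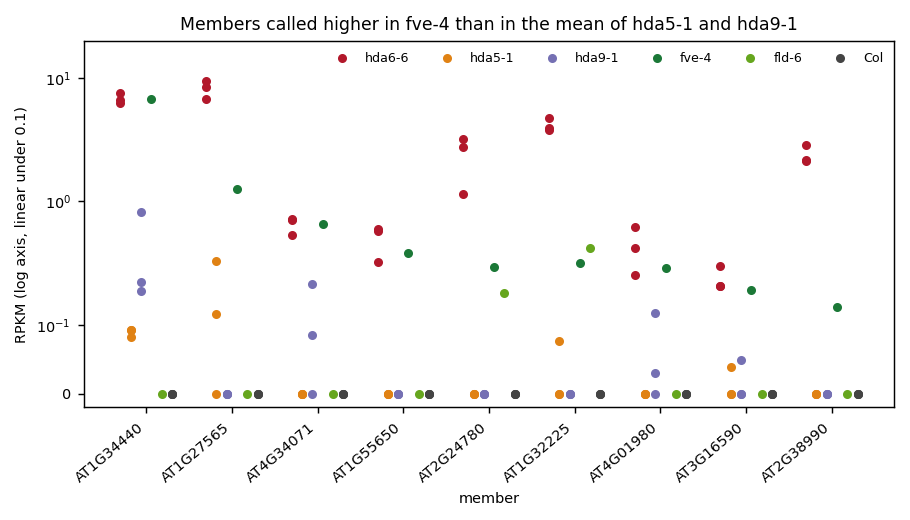
RPKM by genotype, 1 point a library, of the 9 loci called higher in fve-4 than in the mean of hda5-1 and hda9-1 over all libraries, on a log axis that is linear under 0.1. AT1G34440 at 6.69 RPKM in fve-4 lies within its hda6-6 range, and AT1G27565 and AT1G32225 lie below their hda6-6 values.

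In fld-6 the loci were almost silent. In this library 10 of 83 were above 0 (12%), against 5.67% of the 5023 other arm genes at 0 in Col, and their summed RPKM was 0.877. AT1G32225 was the one locus above RPKM 0.2 and the one called, with 0.423 RPKM in fld-6 against 0, 0.0764 and 0 RPKM in hda5-1 and 0 in each hda9-1 library. That call came from the fit over all libraries, against the mean of hda5-1 and hda9-1, where 1.06% of all genes were called higher. Against Col 1 locus was called as well, beside 0.677% of all genes. The value rests on about 5.49 reads of a single library. In the fit without hda6-6 and Col AT1G32225 did not pass the filter and none of the 4 loci tested was called in fld-6, beside 0.518% of genes called higher.

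The copy of AT1G32225 had reads in the same mutants. AT2G24780 had 0.182 RPKM in fld-6 and 0.293 RPKM in fve-4, and was at 0 in every hda5-1, hda9-1 and Col library. In hda6-6 AT1G32225 had 3.77, 3.91 and 4.73 RPKM. Since the 2 genes are 98.3% identical, reads of the one may have been counted for the other.

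Outside hda6-6, 26 loci were at 0 in all 11 libraries, among them 12 transposable element genes and 12 coding genes. The 3 Col libraries among the 11 are at 0 by the rule, here and for the single loci given above. The same count was not made for other arm genes. The highest of them was AT5G01080, at a mean of 8.11 RPKM in hda6-6. Only 10 of the 83 loci exceeded RPKM 0.2 in any library of hda5-1, hda9-1, fve-4 or fld-6. One of these, AT1G07175, annotated as an alternative NAD(P)H dehydrogenase, was uneven, with 0.784, 0.521 and 0.698 RPKM in hda6-6, 0.164, 0 and 0.652 RPKM in hda5-1 and 0.209, 0.392 and 0 RPKM in hda9-1.

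The loci lay closer to the centromeric blocks than other arm genes. Of the 83, 27 (32.5%) lay within 1 Mb of a border of these blocks, against 8.73% of arm genes, with a median distance of 2.01 Mb and 5.9 Mb. Of the transposable element genes among the loci 40% lay within 1 Mb, against 38.7% of pseudogene-class arm genes. Of the coding loci 25.7% lay within 1 Mb, against 7.53% of coding genes of the arms. Arm genes at 0 in Col, whatever their hda6-6 value, were within 1 Mb in 17.8% of cases. Close to the border on chromosome 3 lay AT3G44006, AT3G44035, AT3G44070, AT3G44215 and AT3G44325, at 0.067 to 0.267 Mb, with hda6-6 means of 3.25, 0.945, 4.58, 1.76 and 0.323 RPKM. Close to that on chromosome 4 lay AT4G03870, AT4G03911 and AT4G03923, at 0.0967 to 0.148 Mb, with means of 0.74, 3.11 and 0.889 RPKM. On the distal side, HISN6B lies 10.4 Mb and AT1G78095, a transposable element gene with 1.26, 1.02 and 1.13 RPKM in hda6-6, 12.7 Mb from the border.

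The loci formed 5 runs of 2 adjacent genes. These were AT2G23480 with AT2G23490 (chr2:10001893-10005684), AT1G27565 with AT1G27570 (chr1:9574550-9582376), AT1G49080 with AT1G49090 (chr1:18159889-18162686), AT5G26345 with AT5G26350 (chr5:9249457-9253637) and AT5G47260 with AT5G47280 (chr5:19189411-19195559). In the first, AT2G23490 was far above AT2G23480, which had 3.29, 3.80 and 2.01 RPKM in hda6-6. In the second, AT1G27570, a phosphatidylinositol kinase family gene, had 1.57, 1.70 and 1.28 RPKM, lower than AT1G27565 in each library.

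The genes next to the loci were looked at in the same contrast. Of 155 nearest neighbours that are not among the loci 87 were tested, and 17 of these (19.5%) were called higher in hda6-6 than in Col, beside 7.95% of all genes. With a pseudocount of 1 the count was 8, and without a single hda6-6 library 9 or 10. Some called neighbours narrowly missed the rule themselves. AT1G35380, AT1G35990, AT2G16676 and AT3G15602 were at 0 in Col and averaged 0.238, 0.211, 0.202 and 0.198 RPKM in hda6-6. Another, AT3G24680, overlaps the locus AT3G24675. The share of neighbours called is therefore not independent of the choice of the loci and is given as a description. The largest change was in SADHU3-1 (AT3G44042), a non-autonomous retroposon beside AT3G44035, which averaged 56.0 RPKM in hda6-6 and 0.0301 RPKM in Col (log2 fold change 8.77, limma adjusted p = 3.58e-08). AT2G23500, a transposable element gene beside AT2G23490, averaged 4.09 RPKM in hda6-6 and 0.006 RPKM in Col (log2 fold change 5.3, limma adjusted p = 9.22e-09). AT3G24517, beside AT3G24516, averaged 3.87 RPKM in hda6-6 and 0.0311 RPKM in Col (log2 fold change 4.96, limma adjusted p = 1.86e-07).

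Highly expressed neighbours were among them too. SKU5 (AT4G12420), a membrane-anchored protein of directional root growth, averaged 66.4 RPKM in hda6-6 and 23.0 RPKM in Col, a log2 fold change of 1.52 (limma adjusted p = 1.39e-05), beside the transposable element gene AT4G12423. AT2G16660, beside AT2G16670, averaged 83.5 RPKM in hda6-6 and 20.7 RPKM in Col, a log2 fold change of 2.01 (limma adjusted p = 5.93e-06). Other neighbours were lower, such as NDA1, beside AT1G07175, at 9.82 RPKM in hda6-6 and 25.6 RPKM in Col (log2 fold change -1.38, limma adjusted p = 9.16e-06). Counting by strand is not given in the sources used here, and 6 of the loci overlap another annotated gene, so reads of overlapping neighbours cannot be told apart.

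Genes of pathways that set or remove silencing marks were looked at as well. Most of those listed act in silencing. The list also holds the demethylase genes ROS1, DML2, DML3, DME and IBM1, which remove such marks, so its median pools both kinds. Of 37 listed genes of DNA methylation, histone deacetylation, small RNA and chromatin remodelling pathways 36 were tested. In hda6-6 against Col 1 was called, HDA6 itself, with a median log2 change of 0.16 over the list, beside 0.05 over all genes. At an unadjusted limma p under 0.05 against Col were 9 genes of the list in hda6-6 and 9 in hda5-1. In hda5-1 and in fld-6 CLSY1, a chromatin remodelling factor of the small RNA pathway, was called lower, with a log2 change of -1.19 (limma adjusted p = 0.000124) in hda5-1 and -1.37 (limma adjusted p = 0.00538) in fld-6. No gene of the list was called by limma in hda9-1 or fve-4 against Col, with 5 genes in hda9-1 and 7 in fve-4 at an unadjusted p under 0.05.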

How the data were processed

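RNA-seq of 14-day-old seedlings was used as deposited. The authors used CASAVA 1.8 for base calls, Bowtie2 (version not given) for mapping to TAIR10 and RackJ for RPKM per gene, per the submitters' notes and the study's methods. The deposited RPKM values are scaled to the mapped total, with no read counts. Depth was estimated from the steps of low RPKM, with a tolerance of 0.02. Reads per value also use the exon length of the annotation, which may differ from the length behind the RPKM. The estimates served no test and entered only the minimum of 5 reads.

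The 83 loci, and the gene lists, were chosen with earlier results of these data known. Values were tested as log2(RPKM + 0.1) with limma 3.58.1 (R 4.3.3, trended eBayes, genotype the only factor, all 14 libraries, 8 residual degrees of freedom) on 23187 genes above RPKM 0.1 in at least 3 libraries, and the script was tested on simulated data. The Benjamini-Hochberg adjustment ran over all genes of a contrast, and a call also needed a 2-fold change. The repeats of Col and hda6-6 are biological, per the methods. For hda5-1 and hda9-1 nothing says that the replicates are separate cultures, and the p-values then measure only the spread between these samples.

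All 83 loci matched the TAIR10.1 annotation (RefSeq), whose nuclear chromosome lengths equal those of TAIR10. Sequences, coordinates, motifs and blastn copies (BLAST+ 2.17.0) come from it. Its pseudogene class was read as transposable element genes, as the study names most of those it lists. Named loci were the 12 with the highest hda6-6 mean, those above RPKM 0.2 or called in another mutant, those at the edge of the rule, those with a symbol, adjacent pairs, and the 3 most and 3 least variable, with others picked after their values were seen. Alternatives were other pseudocounts (1 and 0.01), no filter on low values, median-of-ratios scaling, a replicate block, other levels of the rule (0.1 and 0.5), each replicate left out and, chosen after seeing the data, a minimum of 5 reads and a fit without hda6-6 and Col.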

Additional observations from a re-analysis of the deposited data

How the results depend on the processing

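The number of loci chosen was 53 with a level of RPKM 0.5 in place of 0.2, and 95 to 103 without 1 of the Col or hda6-6 libraries. With a pseudocount of 1 the loci called higher against Col were 44 in hda6-6, 0 in hda9-1, 2 in fve-4 and 0 in the fld-6 library. With that pseudocount, 0 were called in hda5-1 against hda9-1, and against the mean of hda5-1 and hda9-1, 2 in fve-4 and 0 in the fld-6 library, and 8 neighbours were called. A larger pseudocount shrinks the change of low genes. With a pseudocount of 0.01 there were 3 calls in hda5-1 and 2 in fld-6 against Col, and 3 in fld-6 against the mean. With at least 5 estimated reads, 5 loci were called in fve-4 against that mean. Without hda6-6 and Col, 0 were called in hda5-1 against hda9-1, and 2 in fve-4 and 0 in fld-6 against the mean, since 4 loci passed the filter. With no filter in that fit the calls were 0, 6 and 1, some of them for loci at 0 in every hda5-1 and hda9-1 library, whose own spread is 0. Above a level of 0.1 in every library were 1 locus in hda9-1, 14 in fve-4 and 3 in the fld-6 library, and above 0.5 there were 3 in fve-4 and 0 in the fld-6 library.

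Leaving out 1 library at a time, the loci called against Col were 19 to 83 in hda6-6, 0 to 2 in hda5-1, 1 to 3 in hda9-1, 9 to 12 in fve-4 and 1 in the fld-6 library. The 19 arose because only 19 loci passed the filter with 2 hda6-6 libraries. For the other contrasts the ranges were 0 to 3 in hda5-1 against hda9-1 (0 without hda5-1 replicate 2 or hda9-1 replicate 1, 3 without hda9-1 replicate 2), 7 to 10 in fve-4 and 1 to 2 in fld-6 against the mean. Neighbours called were 9 to 18, and loci above RPKM 0.2 in every remaining hda9-1 library 0 to 2 (2 without replicate 3). Of 201 values of the named loci in these contrasts under the alternatives, 169 kept direction and call, 32 kept the direction but lost the call, and 0 changed direction.

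The replicate numbers were not taken to pair the samples, since 6 of 18 same-number pairs had a correlation of deviations above 0.1 (lowest -0.07, highest 0.17). These were 5 of the 6 pairs numbered 1, 1 of those numbered 2 and 0 of those numbered 3. With the replicate number as a block, 83 loci were called in hda6-6, 0 in hda5-1, 1 in hda9-1, 9 in fve-4 and 1 in the fld-6 library against Col. With the block, 1 locus was called between hda5-1 and hda9-1, 7 in fve-4 and 1 in fld-6 against the mean, and 17 neighbours. AT3G16590 (1.24) and AT4G01980 (1.73 on the log2 scale) lost their fve-4 calls under it. Depth limits the low values, as RPKM 0.2 stands for few reads in a short gene, and fve-4 and fld-6 had 1 library each.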
